A study of Mus musculus with 5 samples.

Results

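The genes described here are the cytosolic ribosomal protein genes, which encode the protein part of the ribosomes that translate nuclear mRNAs. They were taken by symbol: every gene whose symbol begins with Rpl or Rps and a digit, or with Rplp and a digit, and Rpsa, without pseudogene symbols and Rps6k kinase genes, and with at least 20 unique molecular identifiers (UMIs, each counting 1 captured mRNA molecule) over the 5 matrices. The rule took 83 of the 32285 genes in the matrices, and all 83 had UMIs in every library. They comprise 46 genes of the large subunit, 31 of the small subunit, 5 diverged copies (Rpl7l1, Rpl22l1, Rpl36al, Rps27l and Rps27rt) and Rps19bp1, a nucleolar protein that carries the symbol but is no ribosomal protein. Another 3 symbols fell under the UMI minimum: Rpl10l had 0 UMIs, Rpl3l 2 and Rpl39l 4. The rule itself uses symbols and summed UMIs, not a difference between groups.

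The data are single-cell 3' gene counts of dispersed pancreatic islets from 5 NOD.Cg-Prkdcscid/J (NOD.SCID) mice, a diabetes-prone NOD background in which the Prkdc scid mutation, carried by all 5 animals, prevents T and B cells from forming. Chow was fed to 3 of the mice: chow 1 (library name FUN, 8 weeks old), chow 2 and chow 3 (both SKY, 10 weeks old). The other 2 mice received the 20% HC diet, hydrolyzed casein in the series title: HC 1 (FUN, 7 weeks old) and HC 2 (SKY, 9 weeks old, titled as a chow mouse but with 20% HC as its diet label). What the FUN and SKY prefixes stand for is not given in the sources used here. SKY mice were the older ones, so prefix and age cannot be told apart, and within each prefix the HC mouse was 1 week younger than the chow mice, so diet and age cannot be told apart there either. Each library is from 1 mouse, and 2 or 3 mice a group limit every comparison below.

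Libraries held 28722244 to 39624978 UMIs, and 3651 to 5122 cells a library passed the filters, with median depths of 5146 to 6958.5 UMIs a cell. Of the 26474 barcodes, 80 were shared over the 10 pairs of libraries. Cells were clustered with the members left out of the clustering genes, so that they did not help to define the cell types. The 5 types with tests below had at least 57 cells in each mouse: beta, alpha and delta cells, macrophages and endothelial cells, all of them names given from marker genes to rebuilt clusters. Hormone transcripts, which neither type is known to make, still made up 25.2% ± 4.99 (SD, n = 5) of UMIs in macrophages and 23.9% ± 11.97 in endothelial cells.

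The ribosome's large subunit joins amino acids and its small subunit reads the mRNA. Each ribosome carries 1 copy of nearly every ribosomal protein, so their genes are expressed together and at high levels. The acidic proteins of the flexible stalk, Rplp0, Rplp1 and Rplp2, recruit elongation factors. Most ribosomal protein mRNAs begin with a run of pyrimidines, the 5' terminal oligopyrimidine (TOP) tract, through which mTORC1 and LARP1 set their translation. In islets, beta cells devote most of their mRNA and protein synthesis to insulin.

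Such a tract appears at the annotated start of some members and not of others. Windows from 15 bases before to 15 bases from the annotated start (RefSeq, GRCm38.p6) are printed here for members that the results below turn on, with the run of at least 7 consecutive C or T bases reaching within 5 bases of the start in capitals.

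Rps27 (chr3:90213634-90213663, minus strand): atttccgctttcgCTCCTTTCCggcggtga
Rpl38 (chr11:114668565-114668594, plus strand): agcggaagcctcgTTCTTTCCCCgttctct
Rps6 (chr4:86857353-86857382, minus strand): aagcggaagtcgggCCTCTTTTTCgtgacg
Rpl22l1 (chr3:28805493-28805522, plus strand): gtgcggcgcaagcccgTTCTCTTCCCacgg
Rpl36al (chr12:69184053-69184082, minus strand): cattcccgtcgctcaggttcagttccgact
Rps4x (chrX:102189377-102189406, minus strand): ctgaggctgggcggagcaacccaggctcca

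The promoter table held 63 of the 83 members, and 28 of them (44.4%) had such a run at an annotated start on the transcribed strand, the only strand searched, against 4421 of all 27025 genes (16.4%). Among other mRNAs known to be TOP mRNAs the share was 6 of 13 (46.2%), and among mitochondrial ribosomal protein genes 9 of 69 (13%). Rpl36al and Rps4x had none in their windows, which says only that these letters are not there. A run at the start did not separate the members in the comparisons by prefix and diet below. The median difference between SKY and FUN mice in beta cells was 0.19 (log2) in the 28 members with a run and 0.15 in the 35 without. The median difference between diets there was -0.0094 and -0.011. Comparisons between cell types were not split by the run.

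By summed UMIs the most captured members were Rpl13 (276980 UMIs), Rps3a1 (250444), Rpl19 (227609), Rps27a (202144) and Rpl27a (179689). Rps27a encodes ubiquitin fused to a small-subunit protein. The least captured were Rps27rt (1316 UMIs), Rps19bp1 (3402), Rpl7l1 (4309), Rpl29 (10236) and Rps27l (23844), of which only Rpl29 is a canonical ribosomal protein. These are molecules tagged at the 3' end and not levels per length. Ribosomal protein genes have many processed pseudogenes: in 39 of the 83 members at least 50 percent of the 90-base windows of the last 400 transcript bases also occurred in the transcript of another gene, and in Rpl10, Rpl36a and Rps12 all of them did. How reads shared by such copies were counted is not given in the sources used here, so the levels of these members are uncertain.

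The first question was how much of a cell's mRNA this family takes in each islet cell type. Members made up 3.77% of all UMIs in beta cells of chow 1, 3.67% in HC 1, 3.27% in chow 2, 3.21% in chow 3 and 3.49% in HC 2, a mean of 3.48% ± 0.247 (SD, n = 5). The share was 10.0% ± 0.591 in alpha cells, 9.64% ± 1.31 in delta cells, 8.504% ± 0.698 in endothelial cells and 12.7% ± 0.652 in macrophages. Of these 5 types beta cells were lowest and macrophages highest in every mouse, with no overlap with the others. The range of delta cells overlapped those of alpha and endothelial cells, which did not overlap each other. The denominator differs between types: hormone transcripts made up 69.2% ± 3.56 of beta cell UMIs. With hormone and mitochondrially encoded transcripts left out, the share was 12.5% ± 0.575 in beta, 20.2% ± 1.01 in alpha, 16.2% ± 1.20 in delta and 11.8% ± 1.60 in endothelial cells and 17.8% ± 1.10 in macrophages. Alpha cells were then highest in every mouse, and beta and endothelial cells overlapped. Stromal, ductal and Schwann cells, with 22 to 132 cells in each mouse, had shares of 13.3% ± 1.48, 16.0% ± 1.48 and 13.0% ± 2.02 on that scale.

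**Figure D1:**
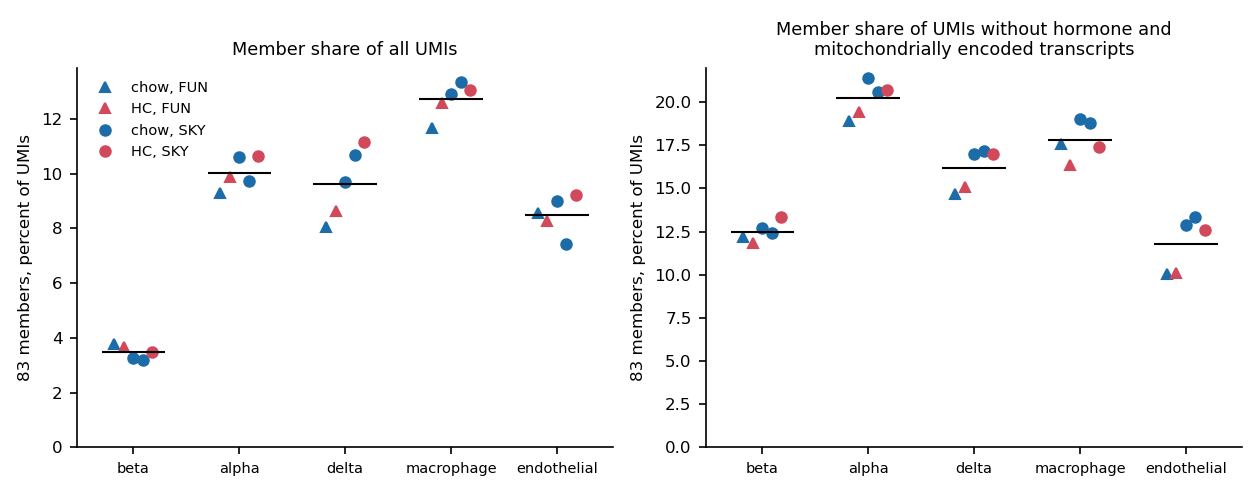
Summed share of UMIs of the 83 members by cell type, 1 point per mouse (triangles FUN, circles SKY, blue chow, red HC) and the mean of the 5 mice as a line. On all UMIs beta cells lie at 3.21 to 3.77% and macrophages highest, and without hormone and mitochondrially encoded UMIs alpha cells lie highest and beta and endothelial cells overlap.

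Tested gene by gene, the family moved as a block between types. The test was edgeR's quasi-likelihood test on UMIs summed per mouse and type, with the mouse as a block, TMM scaling and Benjamini-Hochberg adjustment over 11411 genes. Against the mean of the other 4 types, 80 members were lower and 1 higher in beta cells (29% and 30.8% of all genes), and in alpha cells 77 were higher and 2 lower (26.9% and 24.1% of all genes). In macrophages 77 were higher and 0 lower (19.5% and 14.5% of all genes), and in endothelial cells 2 were higher and 75 lower (28.4% and 22% of all genes). The median log2 difference of the members was -0.64 in beta, 0.47 in alpha, 0.66 in macrophages and -0.40 in endothelial cells, beside medians of -0.021, 0.0037, -0.12 and 0.015 over all genes. Delta cells had 6 higher and 42 lower (23.9% and 22.1% of all genes), but that direction belonged to the scaling: with library sizes that leave out hormone and mitochondrially encoded transcripts, delta cells had 40 higher and 6 lower and macrophages 58 higher and 6 lower. The other 3 types kept their direction on that scale, with 4 higher and 70 lower in beta, 77 and 1 in alpha and 1 and 77 in endothelial cells, where 68.2%, 51% and 50.9% of all genes were called (50.4% in delta cells and 52.7% in macrophages). Large and small subunits did not part: in beta cells 45 of 46 large-subunit and 31 of 31 small-subunit members were lower, and in macrophages 45 of 46 and 31 of 31 were higher.

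Some of the genes with the smallest p in each type are read on the TMM-scaled counts of each gene relative to the library size (CPM). Rps3a1, a small-subunit protein, was 1.84-fold higher in alpha cells (log2 0.88 ± 0.047 SE, adjusted p = 1.3e-27) and lower in endothelial cells by a log2 difference of -0.74 ± 0.054 (adjusted p = 4.7e-21). Rps16 was lower in beta cells, with a log2 difference of -0.93 ± 0.051 (adjusted p = 2.8e-27). Rps29, a short zinc-binding small-subunit protein, had 1911, 1769, 3083, 2918 and 3170 CPM in macrophages of chow 1, HC 1, chow 2, chow 3 and HC 2, against means of 745 in beta and 1370 in alpha cells. Every macrophage sample of Rps29 lay above every beta and delta sample, and the log2 difference was 1.36 ± 0.048 (edgeR, adjusted p = 8.2e-40). Immediate-early and heat-shock genes, induced when tissue is dissociated, also differed between types. Of 27 tested, 21 were lower in beta cells (29% of all genes), 17 higher in macrophages (19.5%) and 18 higher in endothelial cells (28.4%). Their part in the member differences was not tested.

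To see which members part from the family, each was then counted per 1000 UMIs of the 83 members, a measure that leaves hormone transcripts and all other genes out. It was tested with the members' own total as the library size, an alternative chosen after the scaling was seen to matter. On that scale 27 members were higher and 22 lower in beta cells, 18 and 23 in alpha, and 14 and 19 in delta cells. Macrophages had 20 higher and 25 lower, endothelial cells 21 and 18. Of all genes 81.1%, 66.1%, 45.8%, 64.8% and 54.7% were called on that scale, in the order beta, alpha, delta, macrophage, endothelial, so a larger share of all genes than of the members was called in each type.

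Diverged copies parted from their parent genes. Rpl36al, a near-identical autosomal copy of the X-linked large-subunit gene Rpl36a, held 9.18, 9.82, 11.1, 11.2 and 10.98 of 1000 member UMIs in beta cells of chow 1, HC 1, chow 2, chow 3 and HC 2. In macrophages it held 3.32, 3.12, 4.35, 4.15 and 4.85, and in endothelial cells 3.25, 3.39, 4.27, 5.73 and 4.68. Every beta sample was above every sample of the other 4 tested types, and delta cells (8.06 ± 0.855, SD, n = 5) came next, above alpha cells (5.64 ± 0.619). Within the family Rpl36al was higher in beta cells by 0.99 ± 0.058 (log2, SE, edgeR adjusted p = 4.8e-26), and lower in macrophages by a log2 difference of -0.76 ± 0.076 (adjusted p = 3.8e-14). On the TMM scale it was the 1 member called higher in beta cells (log2 0.34 ± 0.054, adjusted p = 7.8e-08), a call lost with the stricter cell filter (log2 0.16, adjusted p = 0.062). Its parent Rpl36a went the other way in beta cells, with 3.33 ± 0.536 of 1000 member UMIs against 4.05 ± 0.688 in alpha cells and a log2 difference of -0.32 ± 0.060 (adjusted p = 2.5e-06). Windows of the transcript end shared with other genes amounted to 75.9% in Rpl36al and 100% in Rpl36a.

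Rpl22l1 and its parent Rpl22 went opposite ways in both beta cells and macrophages. Rpl22 encodes a large-subunit RNA-binding protein, and Rpl22l1 its closest relative. Rpl22l1 held 4.90, 5.28, 5.32, 5.12 and 5.47 of 1000 member UMIs in beta cells and 2.46, 2.57, 2.77, 2.49 and 2.88 in macrophages, with no overlap. Rpl22 held 3.90, 4.06, 4.70, 4.78 and 4.59 in beta cells and 5.78, 5.03, 6.94, 6.62 and 7.05 in macrophages, again with no overlap. Within the family Rpl22l1 differed by a log2 of 0.52 ± 0.056 in beta cells (adjusted p = 3.2e-13) and -0.72 ± 0.077 in macrophages (adjusted p = 6.1e-13). For Rpl22 the values were -0.28 ± 0.056 (adjusted p = 8.6e-06) and 0.36 ± 0.063 (adjusted p = 9.3e-07).

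The rarer copies followed no common order. Rps27l, a copy of Rps27 known as a p53 target, was higher within the family in beta cells (log2 0.46 ± 0.064, edgeR adjusted p = 1.9e-09) and lower in macrophages (-0.40 ± 0.092, adjusted p = 0.00017). Rpl7l1, a copy of Rpl7 that acts in assembly of the large subunit, held 0.822 ± 0.047 of 1000 member UMIs in endothelial cells against 0.324 ± 0.028 in alpha cells (SD, n = 5), with a log2 difference of 0.99 ± 0.14 for endothelial cells (adjusted p = 2.2e-09). Rps27rt, at 0.133 to 0.195 of 1000 on average, passed in no type on that scale, with adjusted p of 0.065 to 0.70. Rps19bp1, a partner of the deacetylase SIRT1, was higher in beta cells (0.72 ± 0.094, adjusted p = 1.5e-10).

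Canonical proteins also took unequal shares. Rpl39, which lines the exit tunnel for the growing chain, had its lowest mean in alpha cells (5.20 ± 1.19, SD, n = 5) and its highest in macrophages (10.5 ± 1.91), with a log2 difference of -0.70 ± 0.059 for alpha cells (edgeR, adjusted p = 2.2e-17). The stalk protein gene Rplp1 held 12.8, 13.3, 13.1, 12.4 and 13.3 in delta cells, below every sample of the other tested types. The means there were 18.1 to 20.1, and the log2 difference of Rplp1 in delta cells was -0.55 ± 0.055 (edgeR, adjusted p = 5.4e-14). Ductal cells, which had no test, are outside that range of means and lay nearer to delta cells. Rplp0, to which the other stalk proteins bind, was also lower in delta cells (-0.33 ± 0.056, adjusted p = 1.1e-06), while Rplp2 did not pass there (-0.12 ± 0.056, adjusted p = 0.072). Rpl10, which is loaded last onto the large subunit, had its highest mean in delta cells (25.4 ± 2.65) and its lowest in endothelial cells (14.5 ± 1.43). Rpl10 shares all its windows with other transcripts. Rpsa, the small-subunit protein also known as the laminin receptor, was higher within the family in alpha (0.26 ± 0.052, adjusted p = 9.8e-06) and beta cells (0.25 ± 0.052, adjusted p = 1.8e-05) and lower in endothelial cells (-0.30 ± 0.056, adjusted p = 5.1e-06).

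**Figure D2:**
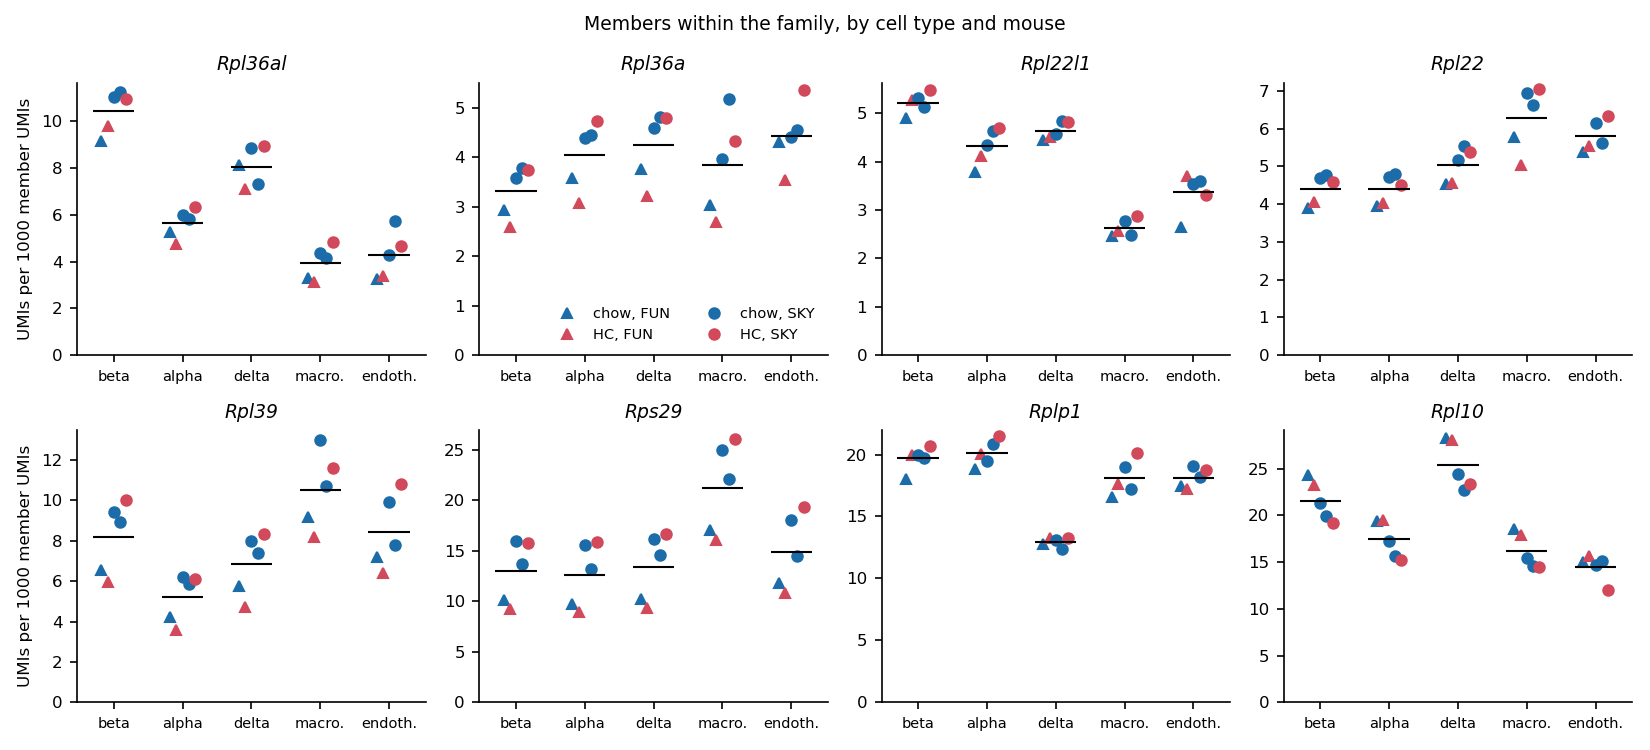
UMIs of 8 members per 1000 UMIs of the 83 members, by cell type, 1 point per mouse (triangles FUN, circles SKY, blue chow, red HC) with the mean of 5 mice as a line. Rpl36al and Rpl22l1 are highest in beta cells, Rpl39 and Rps29 are highest in macrophages, and Rplp1 is lowest in delta cells. In Rps29, Rpl39 and Rpl36a the 3 circles lie above the 2 triangles in each of the 5 types.

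The second question was whether the members differ by library-name prefix, in a fit that also holds diet. Part of them did: members were called in all 5 types, and on the TMM scale every call was higher in SKY mice. Higher in SKY than in FUN mice were 21 of 83 members in beta cells (0.866% of all genes were called higher), 20 of 83 in alpha cells (0.758%) and 31 of 83 in delta cells (0.925%). Macrophages had 4 of 81 tested (0.339%) and endothelial cells 13 of 82 (0.529%). No member was called lower (0 in each type, beside 0.134%, 0.0542%, 0.617%, 0.264% and 0.0165% of all genes in the order beta, alpha, delta, macrophage, endothelial). At an unadjusted p under 0.05, edgeR had 40, 41, 48, 21 and 47 members higher and 2, 0, 0, 3 and 0 lower, beside 7.75%, 6.27%, 8.25%, 10.1% and 10.8% of all genes. DESeq2 called 22, 24, 22, 2 and 15. Higher in all 5 types were Rps27, Rps29, Rpl37 and Rpl37a, short zinc-binding proteins, and 52 of the 83 were called in no type.

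Rps27 had 230 and 177 CPM in beta cells of the FUN mice chow 1 and HC 1, and 377, 338 and 426 in the SKY mice chow 2, chow 3 and HC 2. The groups did not overlap, and the log2 difference was 0.90, with 0.96 in alpha cells, 1.08 in delta cells, 0.88 in macrophages and 1.29 in endothelial cells. In delta cells, with the smallest p, it had 566 and 530 CPM in FUN and 1134, 1114 and 1226 in SKY mice (log2 1.08 ± 0.092 SE, edgeR adjusted p = 5.7e-08). Rps29 in delta cells had 870 and 813 CPM in FUN and 1656, 1502 and 1723 in SKY mice (log2 0.96 ± 0.093, adjusted p = 4.9e-07). The sequence at the end of Rps27 is shared with other transcripts in 98.4% of its windows, that of Rps29 in 27.2%.

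The smallest p in beta cells belonged to the large-subunit genes Rpl35a, Rpl39 and Rpl36. Rpl35a had 197 and 184 CPM in FUN and 276, 281 and 311 in SKY mice (log2 0.61 ± 0.081, edgeR adjusted p = 0.0019). Rpl39 had 221 and 192 against 340, 309 and 379 CPM, and Rpl36 257 and 221 against 380, 357 and 427 CPM, with log2 differences of 0.73 and 0.70. In alpha cells Rpl37 stood at 652 and 551 CPM in FUN and 1154, 1039 and 1108 in SKY mice (log2 0.86 ± 0.095, adjusted p = 0.0023). In endothelial cells Rpl38 stood at 386 and 314 against 837, 904 and 935 CPM (log2 1.34 ± 0.17, adjusted p = 0.012). The small-subunit gene Rps4x, at the other end, had 664 and 612 CPM in FUN and 575, 551 and 543 in SKY beta cells, a log2 difference of -0.21 ± 0.072 that did not pass (adjusted p = 0.39), and Rps2, also of the small subunit, differed by -0.18 ± 0.072 (adjusted p = 0.55).

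Without overlap between the prefixes, 45 of 83 members were above in SKY mice in beta cells (12.1% of all genes), 48 of 83 in alpha (10.5%) and 58 of 83 in delta cells (12%). Macrophages had 40 of 81 (12.4%) and endothelial cells 71 of 82 (15.3%). Below without overlap were 17 (12.5%), 10 (9.84%), 3 (11.2%), 13 (12.4%) and 0 (15.2%). The median log2 difference of the members was 0.17 in beta, 0.21 in alpha, 0.27 in delta cells, 0.12 in macrophages and 0.43 in endothelial cells, beside -0.0036, -0.0073, 0.0028, -0.0020 and 0.0067 over all genes. These medians depend on the scaling. Without hormone and mitochondrially encoded transcripts in the library size they were 0.13, 0.16, 0.20, 0.11 and 0.37. Against the members' own total they lay between 0.0035 and 0.036. As a share of all UMIs, given above, the family in beta cells was lower in every SKY mouse than in both FUN mice.

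The prefix difference followed the length of the encoded protein. Across members, Pearson's r between the log2 difference and log2 coding length was -0.83 in beta cells (n = 83), -0.86 in alpha (n = 83), -0.81 in delta (n = 83), -0.81 in macrophages (n = 81) and -0.75 in endothelial cells (n = 82). Members share the 5 libraries, so these are descriptions and carry no p. Against the length of the whole transcript r was -0.64, -0.64, -0.63, -0.64 and -0.54, and against the mean level -0.39, -0.30, -0.30, -0.33 and -0.32. The 11 members with at most 300 coding bases had a median log2 difference of 0.77 in beta cells, with 9 called higher. The 30 members of 301 to 450 bases had 0.30 and 12 called, the 19 of 451 to 600 bases 0.047 and 0 called, and the 20 of 601 to 900 bases -0.098 and 0 called. In alpha cells the same 4 classes had medians of 0.86, 0.36, 0.078 and -0.058, and in delta cells 0.96, 0.40, 0.18 and 0.0037. Macrophages had 0.70, 0.27, 0.039 and -0.12. In endothelial cells the medians were 1.06, 0.56, 0.27 and 0.22, above 0 in the long classes too, though only members of the 2 shortest classes were called (9 of 10 and 4 of 30).

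Other short genes moved the same way by less. Of the 246 other tested genes with at most 300 coding bases, 49 (19.9%) were higher in SKY beta cells and 0 lower, with a median of 0.12, and the median was 0.065 over the 552 of 301 to 450 bases and 0.0026 over the 693 of 451 to 600 bases. In alpha cells 45 of 232 (19.4%) and in delta cells 37 of 223 (16.6%) of the shortest class were higher, against 3 of 154 (1.95%) in macrophages and 14 of 190 (7.37%) in endothelial cells. Over all other genes r with log2 coding length was -0.11 in beta (n = 11008), -0.081 in alpha (n = 10460) and -0.084 in delta cells (n = 9614). It was -0.16 in macrophages (n = 2543) and -0.17 in endothelial cells (n = 5912). Fau, a small-subunit protein fused to a ubiquitin-like domain and outside the symbol rule, was higher in delta cells (log2 0.42 ± 0.087, edgeR adjusted p = 0.0071), and Rack1, a scaffold on the small subunit and a longer protein, stood at -0.076 ± 0.089 (adjusted p = 0.95).

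**Figure D3:**
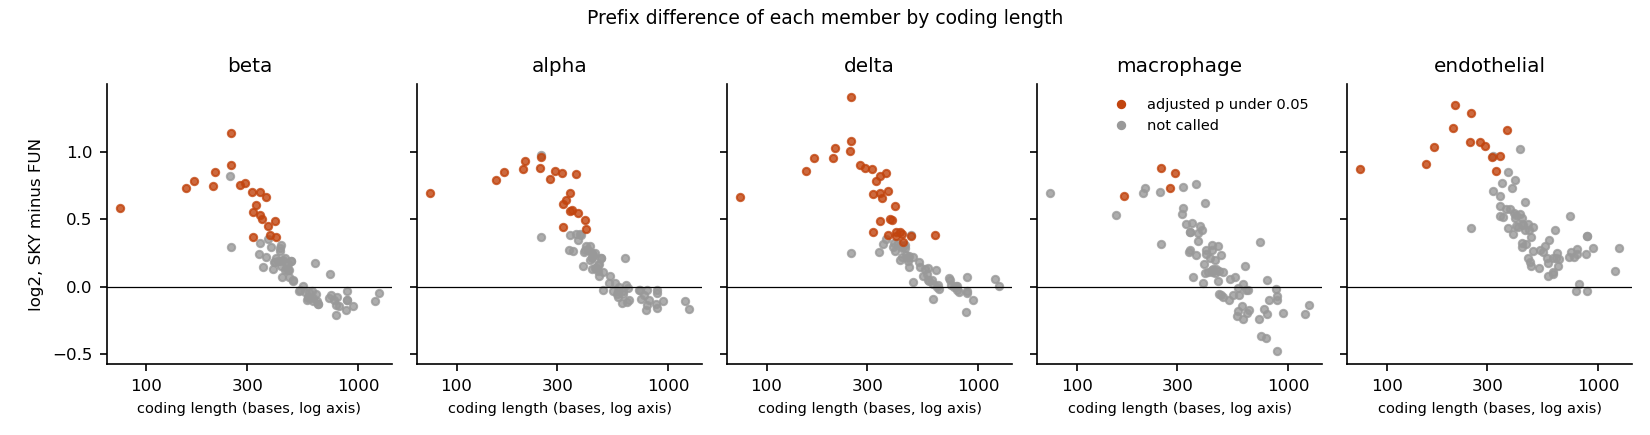
Log2 difference SKY minus FUN of each tested member against its coding length (log axis), 1 panel per cell type, with members called at an adjusted p under 0.05 in orange. In each panel most genes of at most 300 bases lie above the genes of more than 600 bases, with r from -0.75 in endothelial to -0.86 in alpha cells.

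Seen mouse by mouse, the 11 shortest members held 8.96% of the members' UMIs in beta cells of chow 1 and 8.08% in HC 1, and 13.2%, 11.9% and 13.6% in chow 2, chow 3 and HC 2. In alpha cells the values were 7.52% and 6.57% against 11.2%, 10.2% and 11.8%. Ductal cells, with no test, had 7.23% and 6.49% against 10.3%, 9.62% and 10.5%, and Schwann and stromal cells had the same separation. The order of the 2 FUN mice, HC 1 below chow 1, was the same in all 8 types. The 20 members of 601 to 900 bases went the other way, with 32.5% and 32.8% in FUN and 27.9%, 28.5% and 27.5% in SKY beta cells.

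**Figure D4:**
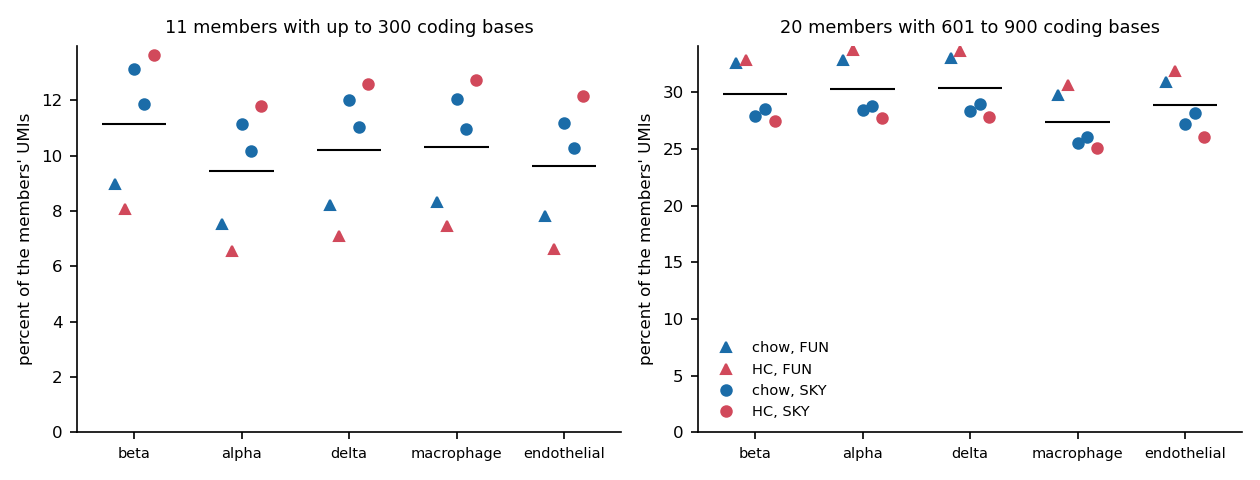
Percent of the members' UMIs held by the 11 members of at most 300 coding bases (left) and the 20 of 601 to 900 bases (right), by cell type, 1 point per mouse (triangles FUN, circles SKY, blue chow, red HC), mean of 5 mice as a line. In every type the 3 SKY mice lie above the 2 FUN mice on the left and below them on the right.

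The counts changed with the mouse left out. Each such fit also has fewer residual degrees of freedom, and how much of a change came from that was not tested. Without chow 2 no member was called in beta cells (0 of 83). In delta cells 15 were called without HC 1, 16 without HC 2 and 18 without chow 1. In macrophages 0 were called without HC 1, HC 2, chow 1 or chow 3 and 11 without chow 2, and in endothelial cells 2 were called without HC 1, 7 without HC 2 and 22 without chow 3. The relation with length stayed without chow 2, at r = -0.81 in beta cells (n = 83). A beta cluster of 2122 cells and an alpha cluster of 832 cells held 67.6% and 73.4% cells of FUN mice, and without them 20 members were higher in beta and 24 in alpha cells. Against the members' own total, 17 were higher and 1 lower in beta, 13 and 0 in alpha, and 18 and 4 in delta cells. Macrophages had 2 higher and 0 lower, endothelial cells 3 and 0. Of all genes 0.782%, 0.506%, 3.28%, 0.829% and 3.87% were called on that scale. Beside age, other measures moved with the prefix: hormone transcripts were 11.7% and 14.3% of endothelial UMIs in FUN mice and 27.6%, 41.7% and 24.3% in SKY mice. The mitochondrially encoded share of beta cell UMIs was 3.34% and 4.05% in FUN mice and 2.04%, 2.47% and 2.57% in SKY mice. In SKY beta cells 3 of 26 dissociation genes were lower (0.134% of all genes). Their part in the member difference was not tested.

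The third question, the one in the study's title, was whether the HC diet moved the members. No member passed in any type: 0 of 83 in beta cells (0.0084% of all genes were called), 0 of 83 in alpha (0.0181%) and 0 of 83 in delta cells (0%). Macrophages had 0 of 81 (0.0753%) and endothelial cells 0 of 82 (0%). In edgeR's test 0, 1, 0, 0 and 0 had an unadjusted p under 0.05, beside 5%, 7.4%, 2.94%, 3.2% and 2.5% of all genes, and DESeq2 called 0 in each type. With the prefix as a term, 0 members passed in each type as well (0.126%, 0.0181%, 0.0299%, 0.151% and 0% of all genes), and the members' median was 0.028 in beta, -0.046 in alpha, 0.016 in delta cells, -0.10 in macrophages and -0.060 in endothelial cells, so its sign in beta and delta cells turned against the fit of diet alone, given next. Simulated 2-fold changes were recovered in 81.8% of genes in beta, 78% in alpha and 59.2% in delta cells. In macrophages 21.1% were recovered and in endothelial cells 26.0%. Changes were simulated only in genes above a minimum mean count, so these rates do not cover genes below it. False calls were 14 of 194 calls in beta, 27 of 198 in alpha and 12 of 158 in delta cells. Macrophages had 2 of 112 and endothelial cells 20 of 127. The members' median log2 difference, HC minus chow, was -0.0090 in beta, -0.081 in alpha, -0.024 in delta cells, -0.11 in macrophages and -0.12 in endothelial cells, beside medians from -0.020 to 0.00015 over all genes, with a median SE of a member from 0.11 in beta to 0.23 in endothelial cells.

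The member with the smallest p was Rpl24, a large-subunit protein at the subunit interface, in alpha cells: it had 868, 1016 and 953 CPM in chow 1, chow 2 and chow 3 and 753 and 837 in HC 1 and HC 2. Both HC mice were below the 3 chow mice, but the log2 difference of -0.25 ± 0.12 (SE) did not pass (edgeR, adjusted p = 0.67). It was -0.20 within FUN and -0.23 within SKY mice. Rps6, the small-subunit protein phosphorylated downstream of mTORC1, had 484, 435 and 438 CPM in chow and 486 and 503 in HC beta cells (log2 0.13 ± 0.096, adjusted p = 0.94). Rps26 in macrophages differed by -0.35 ± 0.22 (adjusted p = 0.997), and Rpl7l1 there by 0.57 ± 0.40, neither of them past the threshold. Both HC mice were above every chow mouse for 5 members in beta cells (10.8% of all genes) and below for 9 in alpha cells (11.1%) and 11 in macrophages (8.55%).

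Within a prefix, the diet difference had no test, with 1 HC mouse in each. The median over members was -0.063 within FUN and 0.093 within SKY in beta cells, -0.016 and -0.050 in alpha and 0.020 and 0.0052 in delta cells. Macrophages had medians of -0.091 and -0.086, endothelial cells -0.0079 and -0.075. Its relation to coding length had opposite signs in the 2 prefixes: r was 0.32 within FUN and -0.50 within SKY in beta cells, 0.49 and -0.61 in alpha and 0.25 and -0.58 in delta cells. Macrophages had r of 0.37 and -0.34, endothelial cells 0.40 and -0.42. In their summed share, given above, the shortest members were lower in HC 1 than in chow 1 and higher in HC 2 than in both SKY chow mice in beta cells. With age as a term, 4 members were called higher in HC delta cells, Rps27, Rps29, Rpl35a and Rpl37a (0.139% of all genes were called). Age is fixed by prefix and diet in these mice (8 weeks, 2 more in SKY and 1 less in HC mice), so that diet term equals the one with the prefix as a term plus 0.5 times the prefix difference. For Rps27 it was 0.57, made of 0.033 and 0.54. These 4 calls hold that part of the prefix difference. Whether age or prefix is the apt term cannot be told in these mice, so the calls are not read as a diet result. The test of the diet difference in another type against that in beta cells called 0 of 83 members in alpha cells (0% of all genes), delta cells (0%), macrophages (0%) and endothelial cells (0.0351%), with 0 members at an unadjusted p under 0.05 in edgeR (3.63%, 2.9%, 5.21% and 4.86% of all genes) and 0 by DESeq2 in each.

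**Figure D5:**
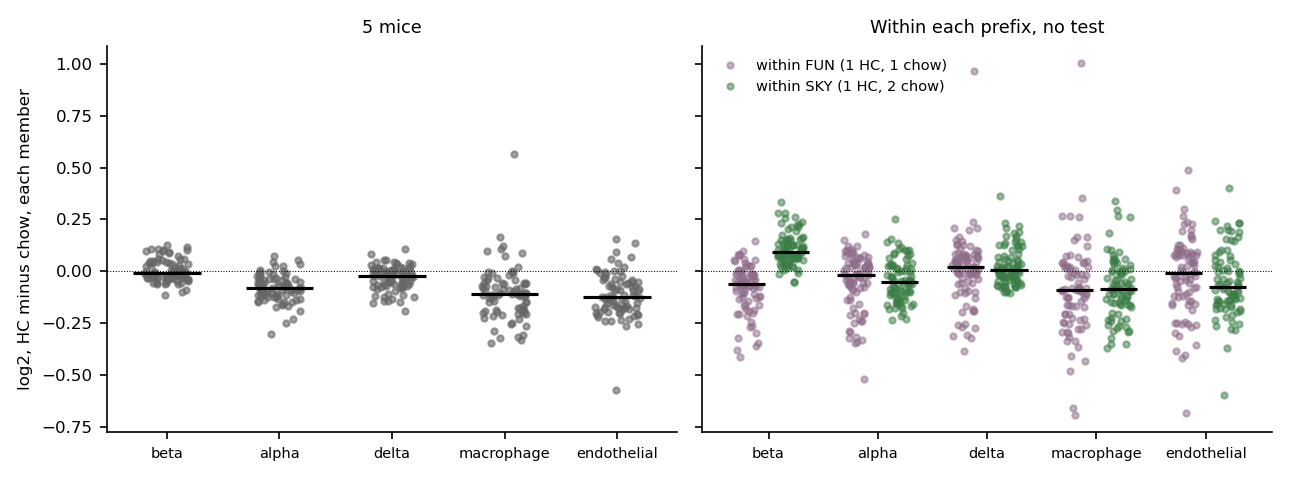
Log2 difference HC minus chow of each tested member by cell type in the fit of 5 mice (left) and within the FUN and SKY mice apart (right), medians as lines. On the left the medians lie between -0.12 and -0.0090, and on the right the medians of beta cells lie on opposite sides of 0.

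Genes of translation outside the family followed it in part between cell types and little by prefix or diet. Of all genes, 30.8% were called higher and 29% lower in beta cells, and 19.5% higher and 14.5% lower in macrophages. Other mRNAs known to carry a TOP tract were lower in beta cells for 19 of 20 and higher in macrophages for 16 of 20 genes, with medians of -0.59 and 0.49. Rack1 (-0.85 ± 0.054, edgeR adjusted p = 8.7e-24) and Fau (-0.76 ± 0.052, adjusted p = 4.7e-22) led in beta cells. Elongation factors fell in 6 of 8 tested in beta cells and rose in 5 of 8 in macrophages, Eef1a1, which brings aminoacyl-tRNA to the ribosome, by -0.64 and 0.64. Initiation factors were split in beta cells, 14 higher and 10 lower of 36, and mitochondrial ribosomal proteins were too, 27 higher and 12 lower of 78, with a median of 0.093. Ribosome assembly genes (10 higher and 15 lower of 46) had no single direction there, nor had genes of the mTORC1 pathway (8 and 6 of 27). Among the latter, Larp1 stood at 0.61 ± 0.085 (edgeR adjusted p = 2.0e-09). The counts of initiation factors, assembly genes and mTORC1 pathway genes lie near the shares over all genes and are no result about these lists.

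By prefix, 1 of 9 elongation factors was lower in beta cells, Eef2, the translocase (-0.45 ± 0.082, edgeR adjusted p = 0.014). No initiation factor of 36, ribosome assembly gene of 48 or mTORC1 pathway gene of 27 passed there. Of all genes 0.866% were called higher and 0.134% lower in SKY beta cells. Mitochondrial ribosomal proteins were higher for 3 of 78 in beta cells, among them Mrpl52 (0.63 ± 0.10, adjusted p = 0.0073) and Mrpl33 (0.56 ± 0.095, adjusted p = 0.0093). In delta cells 2 of 20 other TOP mRNAs were higher (0.925% of all genes). By diet no gene of these translation lists passed in any of the 5 types, while 2 of 7 hormone transcripts were lower in HC macrophages (0.0753% of all genes were called).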

How the data were processed

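Single-cell RNA-seq UMI counts of islet cells from 5 mice were used, 3 fed chow and 2 fed HC, grouped by the diet label. The authors deposited raw counts per gene and barcode, made with Cell Ranger 4.0.0 and mm10 per the submitters' processing notes; how reads matching several genes were treated is not given in the sources used here. Cells with at least 1000 UMIs, 500 genes and at most 15% mitochondrial UMIs were kept (22744 of 26474 barcodes). They were clustered with scanpy 1.11.5 without the members into 23 clusters, named from marker genes; the naming rule was relaxed after the clusters were seen. Scrublet marked 14 barcodes (0.0615%), too few to have worked. These 14 were left out and are not among the 22744, and no other doublets were removed. Symbols came from GENCODE annotation (32158 of 32285 genes), and start sites from RefSeq GRCm38.p6.

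Counts were summed per mouse and cell type and tested with edgeR 4.0.16 (quasi-likelihood, TMM, filterByExpr, R 4.3.3) with Benjamini-Hochberg adjustment over all genes and a threshold of 0.05. Diet was fitted alone, prefix with diet, and cell types with the mouse as a block. CPM values in the text are TMM-scaled, within a type for prefix and diet and over all types for the type contrasts. The test was run on simulated data with known changes. For SKY against FUN, false calls were 17 of 194 calls in beta, 24 of 199 in alpha and 12 of 170 in delta cells. Macrophages had 3 of 91 and endothelial cells 9 of 115. Most of these shares, like most of those for diet, exceed 0.05, so the adjusted p was somewhat too small in the simulations. DESeq2 1.42.0, other scalings, filters, clusterings, the diet in the title of HC 2 and leaving out each mouse were alternatives. Another 2 alternatives were chosen after seeing the data: the members' own total as library size, and leaving out clusters mostly of FUN cells. Members and lists were chosen with earlier results of these data known. Named members are the 3 of smallest p in each direction per comparison, of which only some are described (some items are not reported here), the 5 highest and 5 lowest by UMIs, diverged copies with their parents, the stalk genes, Rpsa and Rps19bp1. Rpl37a and other values set beside these were chosen after their values were seen. Intervals and tests cover the spread of 2 or 3 mice a group.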

Additional observations from a re-analysis of the deposited data

Results flagged for a closer look

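Of 5 pseudogene rows that match the symbol pattern and were left out of every comparison, 3 had more than the 3 UMIs that a count of 0 allows. Rpl10-ps3 had 2642 UMIs over the 5 matrices, Rpl9-ps6 1100 and Rpl36a-ps1 391. All 5 rows together held 4133 UMIs, beside 8770491 in the 83 members.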

How the results depend on the processing

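Counts of called members stayed within 1.5 times their value and kept their direction in 241 combinations of result and alternative, moved further in 26 and turned in 5. Leaving out 1 mouse gave 0 to 29 members higher by prefix in beta, 15 to 39 in delta and 2 to 22 in endothelial cells and 0 to 11 in macrophages. In macrophages 2 were called by DESeq2, 11 at Leiden resolution 0.5, 7 with no diet term, 10 with no low-count filter, 1 without cells rich in hormone transcripts and 2 without the highest doublet scores. In endothelial cells 32 were called with the stricter cell filter, 32 without cells rich in hormone transcripts and 2 without the highest doublet scores. With the members' own total as library size 13 were called in alpha cells, 2 in macrophages and 3 in endothelial cells by prefix, and between types 49 in beta, 41 in alpha, 45 in macrophages and 39 in endothelial cells, by construction in both directions. Delta cells had 46 called with the direction turned without hormone and mitochondrial transcripts in the library size, and 24 with no replicate block for the mouse. With age as a term 4 were called by diet in delta cells, by construction: age is a sum of prefix and diet here, and the term takes up part of the prefix difference. Apart from these constructions and the smaller sets of mice, the cause was not tested. On the TMM scale, Rpl36al in macrophages was at 0.054 and Rpl22l1 at 0.016 when members were allowed in clustering, and at 0.11 and 0.0023 with the stricter cell filter. Neither passed on that scale in the reported fit, and both passed within the family. When members were allowed, no member was among the variable genes. That clustering therefore cannot show what members would do to the cell types. Replicate numbers of the diet groups were given in accession order and pair no mice; with the prefix as a term 0 members were called by diet in each type. Alpha and delta cells could not be named at Leiden resolution 0.5, so they have no value there. With 57 to 130 macrophages a mouse, depth limits that type most.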
